A study of Homo sapiens with 10 samples.

Results

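The 443 transfer RNA (tRNA) genes on chromosomes 1 to 22 and X, among 59098 RefSeq genes there, were examined for peaks of the corepressor proteins RCOR1, RCOR2 and RCOR3 and of the histone demethylase LSD1. Members were all genes that RefSeq's annotation of GRCh38 gives the biotype tRNA, each taken with 100 bp on either side, and a gene was counted as having a peak where any part of that window lay in a peak. The study mapped these proteins by chromatin immunoprecipitation and sequencing (ChIP-seq) in Kelly, an established human neuroblastoma cell line with amplified MYCN, in 10 libraries, 2 for each of 5 groups, all at 48 h. RCOR1 and RCOR3 were precipitated from untreated Kelly cells with antibodies to the proteins themselves. RCOR2 was precipitated with a FLAG antibody from Kelly cells carrying a 3xF-tagged RCOR2, either with doxycycline at 2 µg/mL (induced) or untreated (uninduced), so that the induced signal is that of a tagged, induced protein. LSD1 was precipitated from untreated Kelly cells carrying an shRNA against RUNX1T1, a different derivative from the others. No label says that paired libraries came from separate cultures, so p-values measure the spread between these libraries, which may be technical.

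RCOR1, RCOR2 and RCOR3 are scaffold proteins of the CoREST complex, in which they bind LSD1, which removes methyl groups from histone H3, and histone deacetylases. In neuronal lineages the complex is best known for repression by the factor REST. tRNA genes are short and are transcribed by RNA polymerase III from promoters inside the gene, the A box and the B box, which the factor TFIIIC binds and which lead to recruitment of TFIIIB and the polymerase. They occur in many copies and often in clusters, and copies of one family can be identical in sequence. A symbol such as TRH-GTG1-3 gives the amino acid by its letter (H, histidine), the anticodon of the DNA, the number of the sequence family and the number of the copy.

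Sequences are shown for 7 genes to make plain how alike tRNA genes are that differ in peaks. Sequences were read for 14 tRNA genes that lie whole in RefSeq's promoter windows (GRCh38.p14). Not every chromosome was searched for such genes, so the windows may contain more. The strand of each was read as that on which the B box consensus (GGTTCGA, then any 2 letters, then CC) matched better. Both strands were searched, and for 1 of the 14 (TRI-TAT2-2) both matched equally and the strand could not be read. Of these genes 9 held the consensus exactly, while 65 of 35116 promoter windows (0.185%) held it on either strand. Capitals mark the best match to the consensus, which is a match of letters and not a measured binding site. The histidine pair is identical in sequence: TRH-GTG1-3 (chr1:148281365-148281436, plus strand) had a peak in 0 libraries and TRH-GTG1-9 (chr15:45201151-45201222, plus strand) in 4. The proline pair, TRP-TGG3-2 (chr14:20684016-20684087, plus strand) and TRP-TGG3-5 (chr16:3188094-3188165, plus strand), is identical too, with 1 mismatch to the consensus, and had peaks in 5 and 6 libraries. TRF-GAA1-5 (chr13:94549650-94549722, minus strand) and TRR-ACG2-1 (chr3:45688999-45689071, minus strand) had peaks in both induced libraries, and TRI-AAT8-1 (chr6:27668583-27668656, plus strand), also with an exact match, had none in any library.
TRH-GTG1-3: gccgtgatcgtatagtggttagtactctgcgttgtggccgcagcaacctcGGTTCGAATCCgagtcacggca
TRH-GTG1-9: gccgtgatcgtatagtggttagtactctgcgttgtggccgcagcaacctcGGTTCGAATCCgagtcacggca
TRP-TGG3-2: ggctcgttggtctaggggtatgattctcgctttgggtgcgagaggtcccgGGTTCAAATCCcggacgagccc
TRP-TGG3-5: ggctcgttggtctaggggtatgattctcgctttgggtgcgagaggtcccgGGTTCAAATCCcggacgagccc
TRF-GAA1-5: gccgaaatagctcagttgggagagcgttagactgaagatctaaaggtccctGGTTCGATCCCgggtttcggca
TRR-ACG2-1: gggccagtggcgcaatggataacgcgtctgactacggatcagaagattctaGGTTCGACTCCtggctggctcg
TRI-AAT8-1: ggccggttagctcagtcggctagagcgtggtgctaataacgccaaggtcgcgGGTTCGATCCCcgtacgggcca

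The identical histidine genes lie in different surroundings. TRH-GTG1-9 is 35 bp from an end of SHF, a protein-coding gene, and its peaks had a fold enrichment of 5.37 in RCOR1 replicate 1, 5.05 and 4.25 in the induced libraries and 3.45 in LSD1 replicate 2. TRH-GTG1-3 is 129084 bp from the nearest end of a protein-coding gene. Fold enrichment is throughout the authors' own value for a peak, and it is used only to describe and rank peaks within a list. Among the 57 families with 2 or more numbered copies, which hold 222 genes, 28 had at least 1 copy with a peak in both induced libraries and at least 1 copy with none. In 8 families every copy had a peak in both induced libraries, and in 10 no copy had one in either.

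tRNA genes carried peaks in every library, and the share ranged from 10.2% to 46.7%. RCOR1 peaks lay at 207 and 98 genes in replicates 1 and 2, which is 46.7% and 22.1%. Induced FLAG peaks lay at 182 and 184 genes, 41.1% and 41.5%. RCOR3 peaks lay at 81 and 82 genes, 18.3% and 18.5%, so that its replicates, like the induced pair, differed little in number. LSD1 peaks lay at 117 and 68 genes, 26.4% and 15.3%. Uninduced FLAG peaks lay at 45 and 99 genes, 10.2% and 22.3%, and replicate 2 held more than either RCOR3 library. The 95% Wilson intervals, which cover counting error only, ran from 42.1% to 51.4% for RCOR1 replicate 1 and from 7.68% to 13.3% for uninduced replicate 1. The lists themselves differ in length, from 10253 peaks in uninduced replicate 1 to 75643 in induced replicate 1, and read depth is unknown from peak lists.

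The background for these shares was measured over 39948 windows of 273 bp, the length of a typical extended tRNA gene, centred on both ends of 19974 protein-coding genes. Those gene ends had a peak in 22.3% and 11.6% of cases for RCOR1, in 33.1% and 33.8% for induced FLAG, in 6.51% and 7.76% for RCOR3, in 2.21% and 0.566% for LSD1, and in 8.27% and 3.42% for uninduced FLAG. The share over all tRNA genes was above the gene-end share in all 10 libraries. Over the 368 tRNA genes more than 2 kb from a protein-coding gene end, the induced share was 32.1% in each library, below the gene-end shares of 33.1% and 33.8%, so that for induced FLAG the direction turned. The ratio of the shares was 1.24 and 1.23 for induced FLAG, 2.10 and 1.90 for RCOR1, and 2.81 and 2.39 for RCOR3. For LSD1 it was 11.9 and 27.1. Uninduced FLAG gave 1.23 and 6.53, and its replicates differed more on the log2 scale (SD 1.70) than those of any other group. Against other non-coding genes of up to 500 bp, extended alike, the LSD1 ratios were again the highest, 14.5 and 11.5, beside 3.48 and 3.66 for induced FLAG.

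**Figure D1:**
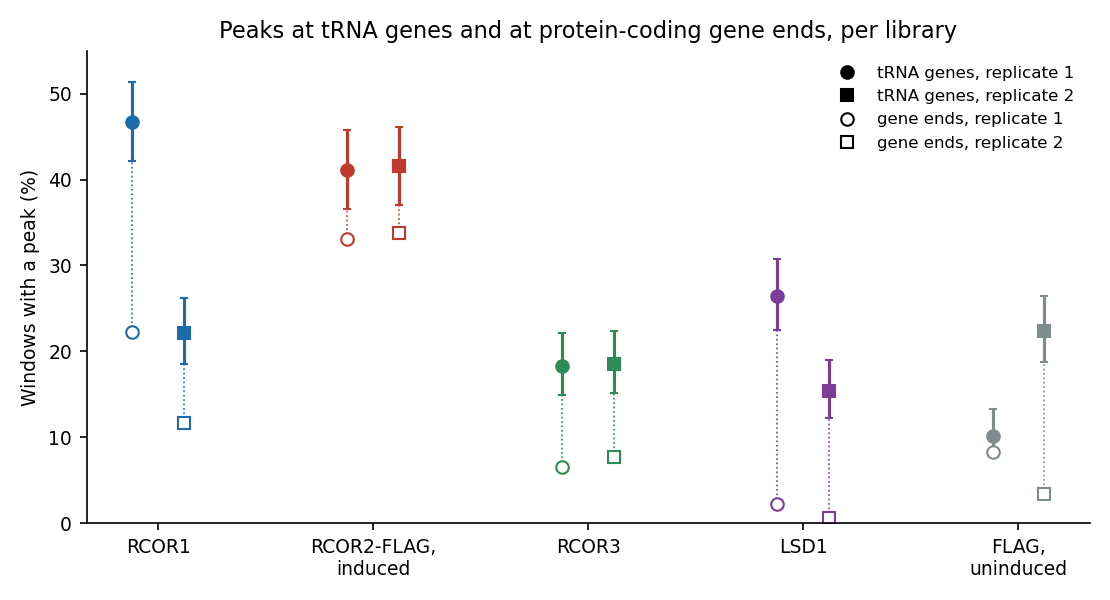
Percentage of windows with a peak in each library (y axis) by group (x axis); filled symbols are the 443 tRNA genes with 95% Wilson intervals, open symbols the protein-coding gene ends, circles replicate 1 and squares replicate 2. The gap between filled and open symbols is widest in proportion for LSD1, where gene ends stand at 2.21% and 0.566%.

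Among RCOR1, induced RCOR2, RCOR3 and LSD1, the relative preference for tRNA genes differed beyond the spread of replicates. On the log2 scale the ratio of tRNA share to gene-end share averaged 4.17 ± 0.838 for LSD1, 1.37 ± 0.167 for RCOR3, 1.00 ± 0.0977 for RCOR1 and 0.30 ± 0.0102 for induced RCOR2 (SD, n = 2 libraries each). The libraries of these 4 proteins did not overlap on this scale. The F statistic over the 4 proteins was 31.2, with an exact permutation p = 0.00952, the smallest that the 105 distinct assignments of 8 libraries allow, and over the alternative settings p ran from 0.00952 to 0.019. The share of tRNA genes itself did not pass, with F = 2.63 and an exact permutation p = 0.295. LSD1 peaks were few at gene ends, which enters this ratio, and the protein, its antibody and its derivative line cannot be told apart.

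Induced and uninduced FLAG libraries were compared to ask how much of the tRNA signal depends on the induced protein. The share of tRNA genes was 41.3% ± 0.319 with doxycycline and 16.3% ± 8.62 without (SD, n = 2), a difference of 25.1 percentage points, and the induced libraries did not overlap the uninduced ones. The exact permutation test gave p = 0.333, two-sided, which is the smallest possible with 2 libraries against 2. With every list shortened to its 10253 peaks of lowest q-value the difference was 1.47 points, and with peak summits required inside the window it was 2.14 points. Relative to gene ends the log2 ratio was 0.30 ± 0.0102 with doxycycline and 1.5 ± 1.70 without (SD, n = 2), a difference of -1.2 with an exact permutation p = 0.667, and without uninduced replicate 2 the difference was 0.01.

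Gene by gene, 162 tRNA genes (36.6%) had a peak in both induced libraries, beside 30.5% of gene-end windows and 9.57% of small non-coding genes. The count was 62 with lists of equal length and 26 with summits inside the window. Of these, 67 (15.1%; gene ends 20.9%) had no uninduced peak, 57 (12.9%; gene ends 7.81%) had a peak in 1 uninduced library, and 38 (8.58%; gene ends 1.81%) in both. The count of 67 was 10 with lists of equal length, 16 with summits inside the window and 118 without uninduced replicate 2. Put the other way, 95 of the 162 (58.6%) also had an uninduced peak, compared with 31.5% of the 12201 gene-end windows and 42.1% of the 330 small non-coding genes with peaks in both induced libraries. Uninduced replicate 2 accounted for 89 of the 95 and replicate 1 for 44. A count of 38 genes with peaks in both uninduced libraries compares with 1.83% of gene ends (tRNA genes 8.58%), and all 38 had peaks in both induced libraries. The same held for 724 of the 730 gene-end windows and all 54 small non-coding genes with both uninduced peaks. Only TRH-GTG1-4, a histidine gene, had an uninduced peak (fold 4.21 in replicate 2) and no induced one, beside 0.0951% of gene ends.

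**Figure D2:**
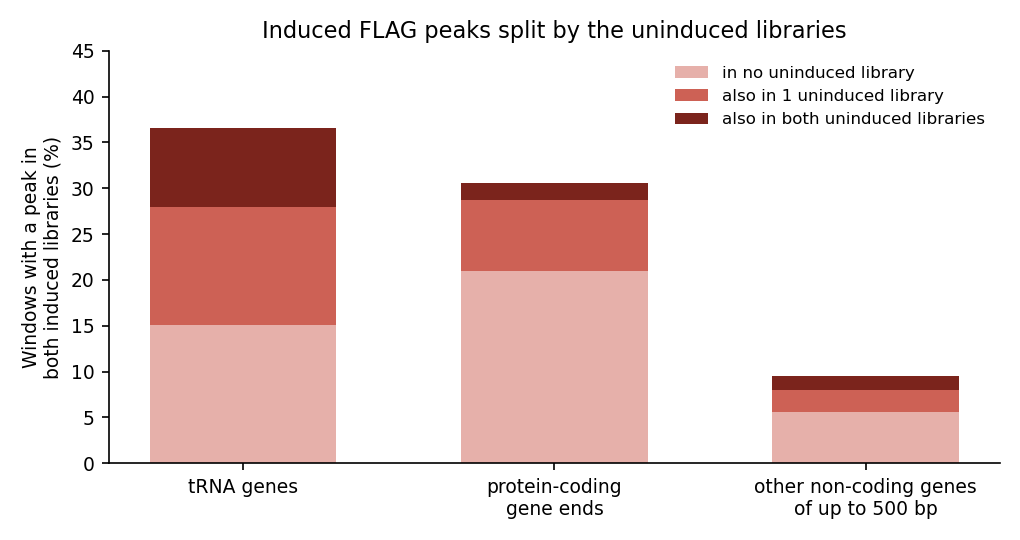
Percentage of windows with a peak in both induced FLAG libraries (y axis) for tRNA genes, protein-coding gene ends and other non-coding genes of up to 500 bp (x axis), divided by colour into those with 0, 1 or both uninduced libraries also showing a peak. The darkest band, both uninduced libraries, is 8.58% for tRNA genes and 1.81% for gene ends.

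Induced peaks had higher folds at tRNA genes that also had uninduced peaks. In induced replicate 1 the median fold was 9.96 where no uninduced library had a peak, 12.2 with 1 and 39.4 with both. In induced replicate 2 the medians were 8.33, 12.1 and 47.6. Many of the 38 genes share broad peaks in a cluster on chromosome 1 described later, and without that cluster 18 genes had peaks in both uninduced libraries.

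In the other groups, 98 tRNA genes (22.1%; gene ends 10%) had peaks in both RCOR1 libraries, 53 (12%; gene ends 3.07%) in both RCOR3 libraries and 65 (14.7%; gene ends 0.476%) in both LSD1 libraries. All 98 genes of RCOR1 replicate 2 were among the 207 of replicate 1. Of the 98 RCOR1 genes 90 were also among the 162 induced genes (55.6% of these), as were 51 of the 53 RCOR3 genes (31.5%). Of the 65 LSD1 genes 40 were in the induced set (61.5%, or 24.7% of that set) and 37 had peaks in both RCOR1 libraries. Every one of the 65 had a peak in RCOR1 replicate 1. None of them had peaks in both uninduced libraries, and 18 had one in uninduced replicate 2. Over all tRNA genes, RCOR1 replicate 1 had peaks at 46.7% (gene ends 22.3%). Both uninduced libraries had them at 8.58% (gene ends 1.83%) and uninduced replicate 2 at 22.3% (gene ends 3.42%). Of the 38 genes with both uninduced peaks, 20 lay in the chromosome 1 cluster described later, which had no LSD1 peak. Gene ends with LSD1 peaks were not split by RCOR1 replicate 1 or by uninduced peaks. No tRNA gene had a peak in all 10 libraries, 245 had a peak in at least 1 (55.3%; gene ends 37.7%) and 198 in none (44.7%; gene ends 62.3%). Peaks in both libraries of all 4 proteins were found at 11 genes (2.48%; gene ends 0.1%), and LSD1 peaks in both libraries without any induced peak at 14 (3.16%; gene ends 0.13%). Among windows with both LSD1 peaks, those without any induced peak were 14 of 65 tRNA genes and 52 of 190 gene ends.

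Single genes show how these patterns combine. TRN-GTT26-1 (chr1:28755-28828), an asparagine gene within LOC124905564, had folds of 56.4 and 78.7 in the induced libraries and no peak in the other 8. Its fold was the highest at any tRNA gene in induced replicate 2, whereas in replicate 1 the highest was 65.9, in the chromosome 1 cluster. TRT-CGT4-1 (chr17:31550074-31550145), a threonine gene, had 29.4 and 70.2 in the induced libraries, 4.20 and 6.30 for RCOR1, 4.43 in RCOR3 replicate 2 and 5.44 and 7.08 in the uninduced libraries. Both FLAG groups thus had called peaks in each of their libraries at this gene, and LSD1 had none. TRI-TAT2-1 (isoleucine, chr2:42810536-42810628) likewise had peaks in all 4 FLAG libraries, with 30.2 and 62.9 induced and 4.40 and 5.96 uninduced. TRF-GAA1-6 (phenylalanine) and TRN-GTT2-6 (asparagine), 2 neighbours close to NDUFS7, lie under a single induced peak of fold 48.9 in replicate 1 and 54.8 in replicate 2.

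Among the tRNA genes with no uninduced peak, several had a peak for RCOR1 or LSD1. TRC-GCA4-1, a cysteine gene 695 bp from LASP1, had folds of 19.9 and 52.1 in the induced libraries and 7.04 in RCOR1 replicate 1. TRV-CAC3-1, a valine gene near DPP9, had 18.8 and 40.9 induced, 5.82 in RCOR1 replicate 1 and 4.18 and 3.94 for LSD1. Both had peaks in RCOR1 replicate 1 but not in replicate 2. TRI-TAT1-1 near PLEKHG2 had 35.8 and 39.3 induced, and TRF-GAA1-5, shown above, had 15.5 and 35.6.

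The highest ranks differed between proteins. For RCOR1 the highest were TRE-CTC1-5 and TRG-TCC2-5, which share peaks of 11 and 10.7, then TRR-TCG3-1, an arginine gene in KCTD2, with 12.4 and 8.10, and TRT-AGT1-3 with 9.84 and 9.69. For RCOR3 they were TRR-CCG1-3 with 6.14 and 7.46, TRL-TAG1-1 near HES7 with 6.78 and 6.71, TRT-AGT1-3 with 6.10 and 6.65 and TRR-TCG2-1 with 5.49 and 8.21. These genes carried peaks of other proteins as well: TRT-AGT1-3 had 30.95 and 35.1 in the induced libraries. For LSD1 the highest was TRK-CTT2-4 (lysine, chr6:26556546-26556618) with 9.07 and 9.35, a gene with a fold of 9.39 in RCOR1 replicate 1 and 4.25 in induced replicate 2. TRA-AGC11-1 (alanine, chr6:26571864-26571936) followed with 8.70 and 8.85. TRK-TTT3-1 and TRK-TTT3-2, lysine genes near MDM4, lie under shared LSD1 peaks of 10.1 and 8.03.

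**Figure D3:**
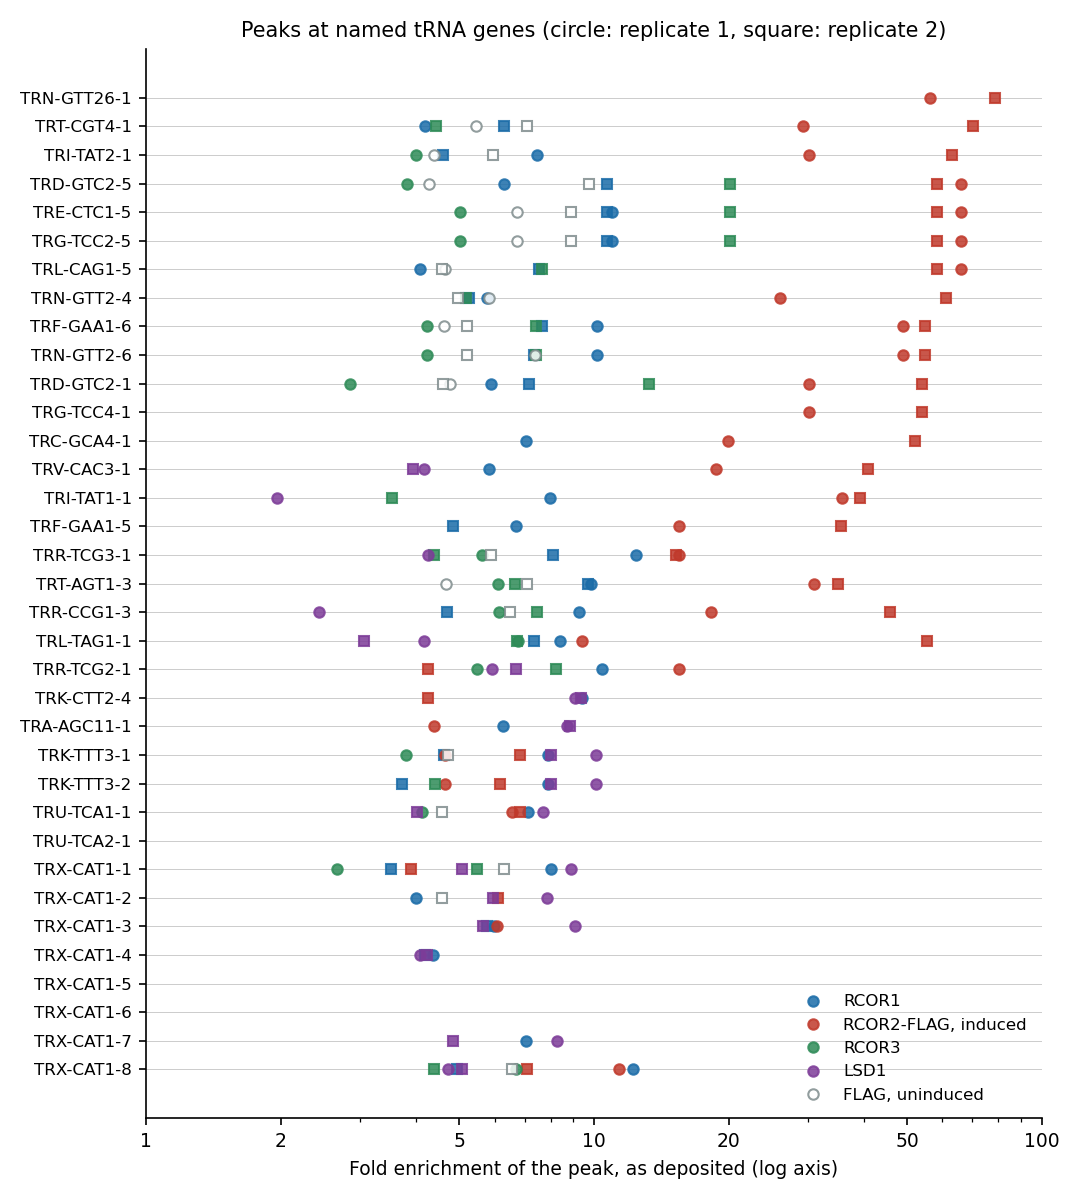
Fold enrichment of the peak at each named tRNA gene as deposited (x axis, log scale), 1 line per gene, coloured by group, with circles for replicate 1 and squares for replicate 2; a missing symbol means no peak. Lines follow the rules that picked the genes: highest induced folds first, then RCOR1, RCOR3 and LSD1, then selenocysteine and initiator methionine genes. Induced FLAG folds reach 78.7 at the upper genes and LSD1 peaks appear mainly in the lower part. These places on the plot were set by that choice and order.

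The largest number of libraries with a peak was 9, at 7 genes chosen here after their values were seen: TRE-CTC1-1, TRL-CAA4-1, TRY-GTA2-1, TRL-AAG2-4, TRR-CCG2-1, TRR-CCT1-1 and TRX-CAT1-8. Peaks in 9 or more libraries were found at 0.0626% of gene ends. TRL-AAG2-4, a leucine gene 188 bp from POLR3E, which encodes a subunit of RNA polymerase III, had 18.8 and 47.3 induced, 10.4 and 7.35 for RCOR1, 5.17 and 6.71 for RCOR3, 2.14 in LSD1 replicate 1, and 10.1 and 9.15 uninduced. Its induced, RCOR1, RCOR3 and uninduced folds are the same as those within 2 kb of the ends of POLR3E, which is counted again later with the polymerase III machinery. TRR-CCG2-1, an arginine gene, had 20.2 and 75.6 induced beside 3.37 and 8.57 uninduced.

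The shares differed with distance from protein-coding genes. Of the 443 genes, 75 lie within 2 kb of an end of a protein-coding gene and 368 lie farther away. Induced FLAG peaks were found at 64 and 66 of the 75 near genes (85.3% and 88.0%) and at 118 of the 368 far genes in each library (32.1%). RCOR1 replicate 1 gave 89.3% near and 38.0% far, and replicate 2 45.3% and 17.4%. LSD1 gave 46.7% near and 22.3% far in replicate 1 and 18.7% and 14.7% in replicate 2, and uninduced FLAG 13.3% and 9.51% in replicate 1 and 50.7% and 16.6% in replicate 2. In both libraries of a group, induced FLAG peaks fell at 81.3% of near and 27.4% of far genes, LSD1 peaks at 16.0% and 14.4%. Beyond 50 kb from a gene end, 16 of 122 genes had peaks in both induced libraries and 2 had peaks in both LSD1 libraries. Nearness to a gene end is shared with the background windows, and its part in the induced share was not tested.

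Peak position relative to the tRNA gene also differed between groups. The median distance from a peak's summit to the midpoint of the gene was 288 and 248 bp for induced FLAG, and 62 and 43.5 bp for LSD1. It was 73.5 and 95.5 bp for RCOR3, 112.5 and 92.8 bp for RCOR1 and 120 and 53.5 bp for uninduced FLAG. Summits lay within 150 bp at 34.1% and 34.2% of genes with induced peaks and at 76.1% and 83.8% of genes with LSD1 peaks. The same held for far genes, with medians of 266 and 208 bp for induced FLAG and 63.5 and 43.5 bp for LSD1. Induced peaks at tRNA genes were broad, with a median width of 828 and 734.5 bp beside 332 and 314 bp over all peaks, while LSD1 peaks measured 405.5 and 281 bp beside 306 and 287 bp. RCOR1 peaks at tRNA genes measured 775 and 256.5 bp, so replicate 1 was as broad as the induced libraries, with summits nearer to the gene.

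**Figure D4:**
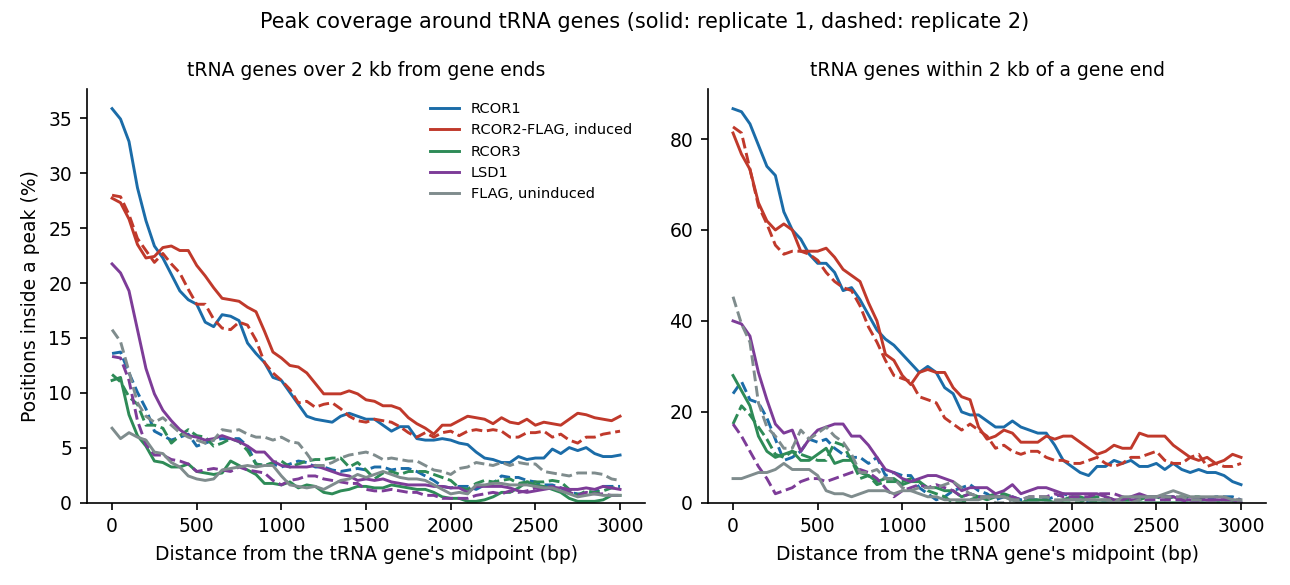
Percentage of positions inside a peak (y axis) against distance from the tRNA gene's midpoint in bp (x axis), both sides together, for genes over 2 kb (left) and within 2 kb (right) of a protein-coding gene end; solid lines are replicate 1, dashed lines replicate 2. At far genes induced replicate 1 falls from 27.7% at 0 bp to 21.6% at 500 bp and 7.07% at 2 kb, whereas LSD1 replicate 1 falls from 21.7% to 5.98% and 1.36%.

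Isotypes, the groups by amino acid, ranged widely in the share with peaks in both induced libraries. The highest among isotypes of 5 or more genes were aspartate with 9 of 13 (69.2%), arginine with 17 of 26 (65.4%) and glycine with 19 of 33 (57.6%). The lowest were cysteine with 3 of 29 (10.3%), glutamine with 2 of 19 (10.5%) and initiator methionine with 1 of 8 (12.5%). Peaks in both uninduced libraries lay at 5 aspartate, 2 arginine and 9 glycine genes, and at 0 cysteine, 1 glutamine and 0 initiator methionine genes. Position differed between isotypes as well. Aspartate and glycine genes are part of the chromosome 1 cluster described later, where 23 of 24 genes had peaks in both induced libraries. All 18 cysteine genes on chromosome 7, between 149310190 and 149707740, had no peak in any library, and 3 of the other 11 had peaks in both induced libraries. For alanine, 6 of 38 genes (15.8%) had induced peaks, and 11 of the 38 lie in the chromosome 6 stretch described later, which leaves 27. The order of the highest isotypes also depends on that stretch. Phenylalanine had both induced peaks at 4 of 11 genes (36.4%), but at 4 of the 5 outside the stretch (80%). Outside it, arginine stood at 70.8% and aspartate at 69.2%.

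The initiator methionine genes, which start every cytosolic protein, carried LSD1 peaks at more of their genes than induced FLAG peaks. LSD1 peaks in both libraries were at 6 of the 8 (75.0%), RCOR1 at 4, RCOR3 at 2, induced FLAG at 1 and uninduced FLAG at 0. Library by library, induced FLAG peaks lay at 2 and 3 of the 8 and uninduced ones at 0 and 3. TRX-CAT1-2 to TRX-CAT1-7 lie on chromosome 6, between 26286526 and 27902564. There, before the stretch described later, 20 of 115 tRNA genes had both LSD1 peaks and 12 both induced peaks. Whether the pattern goes with the isotype or with the region was not tested. TRX-CAT1-1 (chr1:153671250-153671321), near ILF2, had LSD1 folds of 8.91 and 5.07, RCOR1 folds of 8.01 and 3.52, and an induced peak of 3.9 in replicate 2. TRX-CAT1-8 (chr17:82494721-82494792) was the only one with both induced peaks, 11.4 and 7.10, and had LSD1 folds of 4.72 and 5.08. TRX-CAT1-5 and TRX-CAT1-6 had no peak in any library. The 2 selenocysteine genes, which read UGA as selenocysteine, also differed: TRU-TCA1-1 (chr19:45478601-45478687) had induced folds of 6.57 and 6.84, LSD1 folds of 7.69 and 4.01 and RCOR1 and RCOR3 folds of 7.11 and 4.12 in their first replicates, while TRU-TCA2-1 had no peak in any library. TRX-CAT1-1, TRX-CAT1-8 and TRU-TCA1-1 each also had a peak in uninduced replicate 2, and TRX-CAT1-1 and TRX-CAT1-8 had RCOR3 peaks in both libraries. With 8 and 2 genes these are descriptions without a test.

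**Figure D5:**
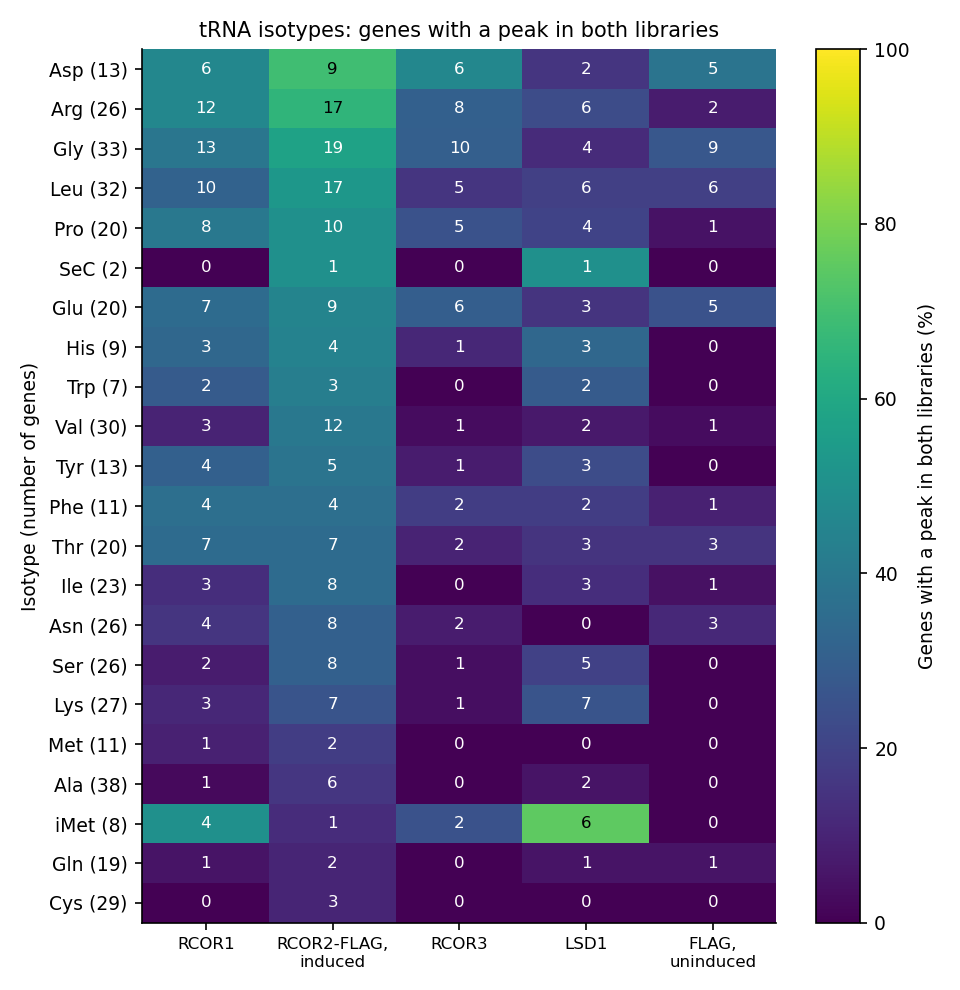
Number of tRNA genes with a peak in both libraries of a group (cell text) and the percentage of the isotype (colour, 0 to 100%), with isotypes as rows, ordered by the induced share, and the number of genes in parentheses. Aspartate and arginine stand at the top with 69.2% and 65.4%, and initiator methionine is dark for induced FLAG and bright for LSD1 with 6 of 8 genes.

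Families with more copies had peaks at a larger share of their genes for induced FLAG, and also for RCOR1, RCOR3 and uninduced FLAG. Of 145 genes in families of 4 or more copies, 81 (55.9%) had peaks in both induced libraries, beside 28 of 77 (36.4%) with 2 or 3 copies and 51 of 201 (25.4%) with 1. In the same order the shares were 40%, 19.5% and 12.4% for both RCOR1 libraries and 25.5%, 7.79% and 4.98% for both RCOR3 libraries. For both uninduced libraries they were 17.9%, 6.49% and 3.48%. The chromosome 1 cluster of repeats described later weighs on these shares. It held 20 of the 38 genes with both uninduced peaks and 19 of the 53 with both RCOR3 peaks. It also held 22 of the 98 with both RCOR1 peaks and 23 of the 162 with both induced peaks. Shares by number of copies without that cluster were not computed. For LSD1 the counts in the same order were 31 of 145 (21.4%), 9 of 77 (11.7%) and 25 of 201 (12.4%), which do not follow the number of copies. Copies that are identical cannot be told apart by short reads that fall inside them, and the placement of reads with several matches was not stated in the sources used here.

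Clustering was defined by gaps of up to 10 kb, which gave 84 clusters of 2 or more genes holding 301 genes and 142 single genes. Clustered genes had peaks in both induced libraries in 37.9% of cases and single genes in 33.8%, a difference of 4.07 points that turned to -0.686 points without induced replicate 2, to -18.0 points when genes were chained at up to 50 kb, and to -0.951 points without the chromosome 1 cluster. With chaining at up to 2 kb it was 34.2 points. The direction of the difference thus varied with these choices. In LSD1, 18.3% of clustered and 7.04% of single genes had peaks in both libraries. RCOR1 gave 24.6% and 16.9%, RCOR3 14.3% and 7.04%, and uninduced FLAG 8.31% and 9.16%. The other chaining distances were run for induced FLAG only.

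The 5 clusters of 8 or more genes behaved differently. The largest, 24 genes at chr1:161440171-161480636, consists of repeats of glutamate, glycine, aspartate and leucine genes. Induced FLAG peaks covered 23 of the 24 in each library, with only 6 distinct peaks of up to 5909 bp, and folds from 30.3 to 65.9 in replicate 1 and from 26.6 to 58.4 in replicate 2. RCOR1 covered 22 in each library with folds up to 11 and 10.7, and RCOR3 19 and 22. Uninduced FLAG covered 21 in each library with folds from 2.97 to 6.73 in replicate 1 and from 4.58 to 9.77 in replicate 2. LSD1 had no peak at any of the 24 genes in either library. Of the 38 tRNA genes with peaks in both uninduced libraries 20 lay here, and since the repeats are near copies of each other, the values of these genes are not independent.

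A cluster of 12 genes at chr6:26299677-26331515 had the opposite order. LSD1 peaks lay at 9 and 7 of the 12 genes with folds up to 9.07 and 6.71, and RCOR1 peaks at 9 and 2. Induced FLAG peaks lay at 3 in each library and uninduced peaks at 0. The cluster at chr11:59550629-59566452 had 8 genes, of which induced FLAG had peaks at 7 in each library, LSD1 at 8 and 6, and RCOR1 at 8 and 4. At chr16:3150674-3192060, 14 genes had induced peaks at 7 in each library and LSD1 peaks at 3 and 1. The fifth, chr6:28789770-28823389 with 8 genes, had no peak in any library.

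Chromosome 6 held most of the tRNA genes without peaks. Of its 155 tRNA genes 105 had none in any library, which is more than in all other chromosomes together (93 of 288). Peaks in both induced libraries lay at 13 of the 155, and LSD1 peaks in both libraries at 20. On the other chromosomes the counts were 149 and 45 of 288. Between 28.7 and 33.4 Mb, where its 31 tRNA genes run from 28710589 to 28989083, 29 of them had no peak, and this stretch held 0 to 15 peaks in 8 libraries, 93 in induced replicate 1 and 77 in replicate 2. In that stretch 42 and 41 of 164 protein-coding genes had an induced peak at an end, and 0 had an LSD1 or uninduced one. The lists also hold peaks on alternate versions of chromosome 6, from 1 to 92 in those 8 libraries and 584 and 475 in the induced ones, and what the alignment did there was not tested. On chromosome 6 also lie 10 of the 14 genes with LSD1 peaks in both libraries and none in the induced libraries.

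Other genes of RNA polymerase III give a reference for the tRNA genes. Of 37 listed genes, 27 had peaks in both induced libraries, 19 in both RCOR1, 15 in both uninduced, 6 in both RCOR3 and 4 in both LSD1 libraries. Over all 3450 small non-coding genes the shares were 9.57% for induced FLAG, 3.45% for RCOR1, 1.57% for uninduced FLAG, 1.83% for RCOR3 and 1.19% for LSD1. The 17 genes for 5S ribosomal RNA lie in an array of repeats and all had induced peaks, with median folds of 41.1 and 40.4, and 14 had peaks in both uninduced libraries, with medians of 3.92 and 6.8, but none had an LSD1 peak. Among the other 20, 10 had peaks in both induced libraries and 1 in both uninduced ones, RPPH1, the RNA of ribonuclease P, which processes tRNA ends. RPPH1 had folds of 13.8 and 22.6 induced and 5.87 and 4.93 uninduced. Like the chromosome 1 tRNA cluster, the 5S array had induced and uninduced peaks and no LSD1 peak.

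Genes for small nuclear RNAs transcribed by RNA polymerase II were counted in the same way. Of 16, 14 had peaks in both induced libraries, 12 in both RCOR3, 11 in both LSD1, 8 in both RCOR1 and 0 in both uninduced libraries, beside the same shares of small non-coding genes. Uninduced peaks lay at 1 of the 16 in replicate 1 and at 8 in replicate 2. Small non-coding genes had them in 2.52% and 3.36% of cases. RNU5B-1, which makes the U5 RNA, had LSD1 folds of 12.1 and 11.8, above those of any tRNA gene. Of 32 genes for the RNA polymerase III machinery, 31 had a peak within 2 kb of an end in both induced libraries, beside 71.8% of all protein-coding genes, 19 in both RCOR1 libraries, beside 33%, 8 in both RCOR3 libraries, beside 13.1%, 7 in both uninduced libraries, beside 8.47%, and 3 in both LSD1 libraries, beside 4.34%. All 20 cytosolic aminoacyl-tRNA synthetase genes, which load tRNAs with amino acids, had induced peaks, beside the same 71.8%.

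The authors' deposited lists of RCOR2-high and RCOR2-low regions, whose definition was not stated in the sources used here, divided the tRNA genes unevenly. RCOR2-high regions covered 37 tRNA genes (8.35%; gene ends 14.6%) and RCOR2-low regions 131 (29.6%; gene ends 9.84%), with 0 in both. LSD1 peaks in both libraries lay at 4 of the 37 and 61 of the 131, and uninduced peaks in both libraries at 14 and 2. All 131 genes of the low list had a peak in RCOR1 replicate 1, and 84 had peaks in both induced libraries. For the high list both counts were 36 of 37. These lists may rest on the same libraries, so the counts describe and test nothing.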

How the data were processed

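The 10 peak lists, 2 per group, were used as deposited, with the authors' RCOR2-high and RCOR2-low lists. Per the submitters' processing notes, BWA 0.7.17, MACS2 and deepTools were used with GRCh38; the roles, controls, read filters and multiply mapped reads were not stated in the sources used here. In the deposited lists, column 7 is the fold enrichment, a ratio, of each peak, column 9 is the −log10 of the q-value, and column 5 is a score that the authors deposited; other columns of the deposited lists give positions. Peaks were called per library. Names inside some lists carry other replicate letters than the labels; the labels were followed.

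tRNA genes came from RefSeq (GRCh38.p14). A gene had a peak where its window of 100 bp on either side shared at least 1 bp with one, and its fold was the highest of these. Shares per library were compared by exact permutation over libraries in Python 3.11.15 with NumPy 2.4.6 and SciPy 1.17.1 (pandas 2.3.3, Matplotlib 3.10.9), threshold 0.05. The search for overlaps was tested on simulated data. The members, lists and alternatives were chosen with earlier results of these data known. Named genes were those ranking highest by the lower percentile of fold in both libraries of a group (12 induced, 6 induced without an uninduced peak, 4 each for RCOR1, RCOR3 and LSD1), those with a peak in all 10 libraries (of which there were 0), all uninduced-only genes, and the selenocysteine and initiator methionine genes; isotypes were the 3 highest and 3 lowest, and clusters all of 8 or more genes. Alternatives changed the window, peak number, fold, summit, distance, cluster counting and libraries.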

Additional observations from a re-analysis of the deposited data

How the results depend on the processing

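Counts of genes with peaks in both libraries fell under several settings. With 10253 peaks per list they were 62 for induced FLAG, 47 for RCOR1, 28 for RCOR3, 22 for LSD1 and 10 for induced without uninduced peaks. With summits inside the window they were 26, 38, 27, 40 and 16, and 15 for uninduced FLAG. With peaks above the median fold they were 49 for RCOR1, 11 for RCOR3, 13 for LSD1 and 10 for uninduced FLAG. Over 2 kb from gene ends they were 101 for induced FLAG, 64 for RCOR1 and 42 for induced without uninduced. With each cluster counted once they were 89 for induced FLAG, 50 for RCOR1, 28 for RCOR3, 40 for LSD1, 19 for uninduced FLAG and 31 for induced without uninduced. Without the chromosome 1 cluster, an alternative chosen after seeing the data, the counts were 34 for RCOR3 and 18 for uninduced FLAG. Leaving out 1 library, which leaves a group with 1, gave 98 to 207 for RCOR1, 81 to 82 for RCOR3, 68 to 117 for LSD1, 45 to 99 for uninduced FLAG and 73 to 118 for induced without uninduced. The cluster difference ranged from -0.686 to 4.13 points when 1 induced library was left out, and was 34.2 points at 2 kb chaining, -18.0 at 50 kb and -0.951 without the chromosome 1 cluster. The induced against uninduced log2 ratio ranged from -2.40 to 0.01 (0.00545) with 1 library left out. The cause of these changes was not tested. With the replicate number as a block, the induced minus uninduced share was 25.1 points (exact sign-flip p = 0.5) and the log2 ratio -1.20 (exact p = 1); same-numbered libraries deviated together with a correlation of 0.153 over genes, from only 2 pairs, which does not show that the numbers pair them. The 4-protein comparison stayed on its side of 0.05 in every alternative run.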
